A study of Mus musculus with 6 samples.

Results

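The miR-17~92 and miR-106b~25 clusters are groups of microRNA (miRNA) genes, each cut from a single primary transcript. They were examined here through the 9 mature miRNAs that each hairpin of the clusters is known for, taken by name from all 1189 entries of a small RNA sequencing table. The miR-17~92 cluster gave 6 of them (mmu-miR-17-5p, mmu-miR-18a-5p, mmu-miR-19a-3p, mmu-miR-20a-5p, mmu-miR-19b-3p and mmu-miR-92a-3p), and the miR-106b~25 cluster gave 3 (mmu-miR-106b-5p, mmu-miR-93-5p and mmu-miR-25-3p), where mmu stands for the mouse and is mostly left out here. All 9 were listed with reads in all 6 libraries.

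The libraries came from the prefrontal cortex of male C57BL/6 wild-type mice, 3 of the PND group and 3 of the CON group, with 1 library per mouse. PND stands for postoperative neurocognitive disorder, a loss of cognitive function after surgery and anesthesia, for which the treated mice serve as a model. The PND mice breathed 1.5% isoflurane for 30 min and then had an exploratory laparotomy of 30 min under the same anesthetic, with lidocaine cream and povidone iodine on the wound afterwards, while the CON mice had neither anesthesia nor operation. The age was 18 months by the labels and the study's methods, whereas the sample titles carry the number 17. Mice of both groups had gone through the behavioural tests, were anesthetized with isoflurane before the tissue was taken and were perfused with saline. By the study's methods, the tissue was taken 30 min after the Barnes maze, which ended days after the operation. The effects of anesthesia, operation and wound care cannot be told apart in this design. The 3 mice of a group were drawn at random from 13, and no cognitive score is attached to a library.

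miRNAs are cut in 2 steps. Drosha frees a hairpin from the primary transcript, and Dicer cuts the hairpin into a duplex, of which 1 strand is usually kept in an Argonaute protein and the other is lost. The kept strand finds its target mRNAs mainly through its seed, bases 2 to 8 from the 5′ end, so miRNAs that share a seed share many targets. The miR-17~92 cluster is known as a MYC-driven promoter of proliferation, also called oncomiR-1, and acts in neural progenitors, where members repress Bcl2l11 (Bim) and Cdkn1a (p21). The miR-106b~25 cluster is its paralog, and its members share seeds with members of the larger cluster.

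The 9 members carry 4 seeds. The RefSeq mature sequences of GRCm38.p6 are shown in groups, because the members were compared by seed. Capitals mark the seed. The first group has the seed of miR-17, with miR-17-5p and miR-20a-5p from the larger cluster and miR-93-5p and miR-106b-5p from the smaller.
mmu-miR-17-5p: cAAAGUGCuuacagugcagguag
mmu-miR-20a-5p: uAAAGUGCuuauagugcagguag
mmu-miR-93-5p: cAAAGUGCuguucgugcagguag
mmu-miR-106b-5p: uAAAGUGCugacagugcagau
miR-18a-5p is alone with its seed, which is close to the first.
mmu-miR-18a-5p: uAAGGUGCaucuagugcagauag
The seed of miR-19 occurs only in the larger cluster.
mmu-miR-19a-3p: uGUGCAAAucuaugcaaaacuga
mmu-miR-19b-3p: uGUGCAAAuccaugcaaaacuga
The last group has the seed of miR-92a, with 1 member from each cluster.
mmu-miR-92a-3p: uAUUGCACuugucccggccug
mmu-miR-25-3p: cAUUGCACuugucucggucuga

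Members within a group are close to each other in sequence. miR-19a-3p and miR-19b-3p differed at 1 of 23 bases, miR-17-5p and miR-20a-5p at 2 of 23, and miR-92a-3p and miR-25-3p at 3 of the 21 bases they could be compared over. miR-106a-5p, from a related cluster on the X chromosome, differed from miR-17-5p at 1 of 23 bases. How reads that match several miRNAs were counted is not given in the sources used here, so reads could be shared between such neighbours.

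In GRCm38.p6 the 6 hairpins of miR-17~92 lie on the plus strand at chr14:115043671-115044506, a stretch of 836 bp, inside an exon of the long noncoding RNA gene Mir17hg (chr14:115042879-115046727). The 3 hairpins of miR-106b~25 lie on the minus strand at chr5:138165321-138165818, over 498 bp, inside the protein-coding gene Mcm7 (chr5:138164583-138172422), which encodes a subunit of the replicative MCM helicase. Another cluster, miR-106a-363 (chrX:52741693-52742567), holds second hairpins for miR-19b-3p and miR-92a-3p with the same mature sequence. Reads of these 2 members therefore cannot be assigned to a cluster by their sequence.

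Levels are given in CPM, reads per 1000000 reads on all listed miRNAs, and the reads behind each value were recovered from the CPM. Depth was 17600766 to 19471226 reads on miRNAs in PND and 14849461 to 16093467 in CON, so that 3 reads, taken as the floor, were worth between 0.154 and 0.202 CPM. This floor and the counting intervals below cover counting error only, since no molecular identifiers are described. A single miRNA of brain, miR-128-3p, took 17.6% to 29.2% of the reads of a library, most in CON mouse 2. The neuronal miR-124-3p (4018 to 6178 CPM) and miR-9-5p (74051 to 96143 CPM) were high in all 6 libraries, as brain tissue shows. The summed levels of marker lists for oligodendrocytes (3 miRNAs), red blood cells (4), leukocytes (5), endothelium (2), epithelium (8) and choroid plexus (4) overlapped between PND and CON. Epithelial markers summed to 1646 CPM in CON mouse 1 and to between 67.0 and 198 CPM in the other libraries. Red blood cell markers summed to 101 CPM in PND mouse 1 and to between 31.9 and 54.7 CPM in the other libraries. In bulk tissue, fewer cells of a type and less RNA per cell cannot be told apart.

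Together the 9 members made up a small part of the miRNA pool. Their CPM summed to 986, 1035 and 988 in PND mice, and to 961, 880 and 916 in CON mice, which is 0.0880% to 0.1035% of the reads. The 6 members of miR-17~92 summed to 479, 482 and 442 CPM in PND mice, and to 448, 425 and 424 CPM in CON mice. The 3 members of miR-106b~25 summed to 507, 553 and 546 CPM in PND mice, and to 513, 456 and 492 CPM in CON mice. With 3 hairpins against 6, the smaller cluster had the higher sum in each of the 6 libraries, and the ratio of the larger to the smaller lay between 0.81 and 0.94.

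The mature miRNAs of a cluster were unequal, although each cluster is a single transcript, by orders of magnitude in miR-17~92 and less in miR-106b~25. Reads of miR-92a-3p and miR-19b-3p may also come from their second hairpins on the X chromosome. miR-92a-3p and miR-25-3p, which share a seed, led the larger and the smaller cluster respectively. mmu-miR-92a-3p had 351, 335 and 270 CPM in PND mice (319 ± 43.4, SD, n = 3), against 317, 342 and 300.1 CPM in CON mice (320 ± 21, SD, n = 3). mmu-miR-25-3p had 327, 332 and 297 CPM in PND mice (319 ± 18.7, SD, n = 3), against 310, 304 and 312 CPM in CON mice (309 ± 3.96, SD, n = 3). Neither group of mice stood above the other for either miRNA, and miR-25-3p was the steadiest of the 9, with a highest library only 1.12 times the lowest.

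The 4 miRNAs with the seed of miR-17 came next. miR-93-5p, of the smaller cluster, had 158, 189 and 210 CPM in PND mice (185 ± 26.2, SD, n = 3), against 177, 136 and 155 CPM in CON mice (156 ± 20.4, SD, n = 3). mmu-miR-20a-5p had 76.2, 82.7 and 103 CPM in PND mice (87.3 ± 13.9, SD, n = 3), against 70.8, 51.4 and 71.6 CPM in CON mice (64.6 ± 11.4, SD, n = 3). Of the 9 members, miR-20a-5p was the only one for which every PND mouse was above every CON mouse. The same held for 7.91% of all 1189 entries.

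miR-17-5p, which names the family, had 37.6, 46.2 and 49.6 CPM in PND mice (44.5 ± 6.15, SD, n = 3), against 44.5, 26.6 and 35.8 CPM in CON mice (35.6 ± 8.96, SD, n = 3). mmu-miR-106b-5p had 22.8, 32.4 and 39.0 CPM in PND mice (31.4 ± 8.15, SD, n = 3), against 26.3, 15.3 and 24.9 CPM in CON mice (22.1 ± 5.97, SD, n = 3). For both, the groups overlapped, with PND mouse 3 the highest library and CON mouse 2 the lowest.

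The members with the seed of miR-19, known as the main oncogenic part of the larger cluster, were far lower. mmu-miR-19b-3p had 11.3, 13.8 and 16.3 CPM in PND mice (13.8 ± 2.51, SD, n = 3), against 13.0, 3.91 and 12.9 CPM in CON mice (9.93 ± 5.22, SD, n = 3). mmu-miR-19a-3p had 2.26, 3.12 and 3.11 CPM in PND mice (2.83 ± 0.494, SD, n = 3), against 2.49, 0.606 and 3.17 CPM in CON mice (2.09 ± 1.33, SD, n = 3). The groups overlapped for both, and CON mouse 2 lay well below the other 5 libraries. Its 9 reads of mmu-miR-19a-3p had an exact Poisson 95% interval of 4.12 to 17.1 reads, and its 58 reads of miR-19b-3p one of 44.0 to 75.0 reads.

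mmu-miR-18a-5p was the lowest, with 5, 9 and 12 reads in PND mice, against 7, 7 and 6 reads in CON mice. Its level of 0.482 ± 0.212 CPM (SD, n = 3) in PND and 0.434 ± 0.0535 CPM (SD, n = 3) in CON was only a little above the floor. The 5 reads of PND mouse 1 had an exact Poisson 95% interval of 1.62 to 11.7 reads and the 12 reads of PND mouse 3 one of 6.20 to 20.96, so a difference between these libraries was not detectable at this depth.

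**Figure D1:**
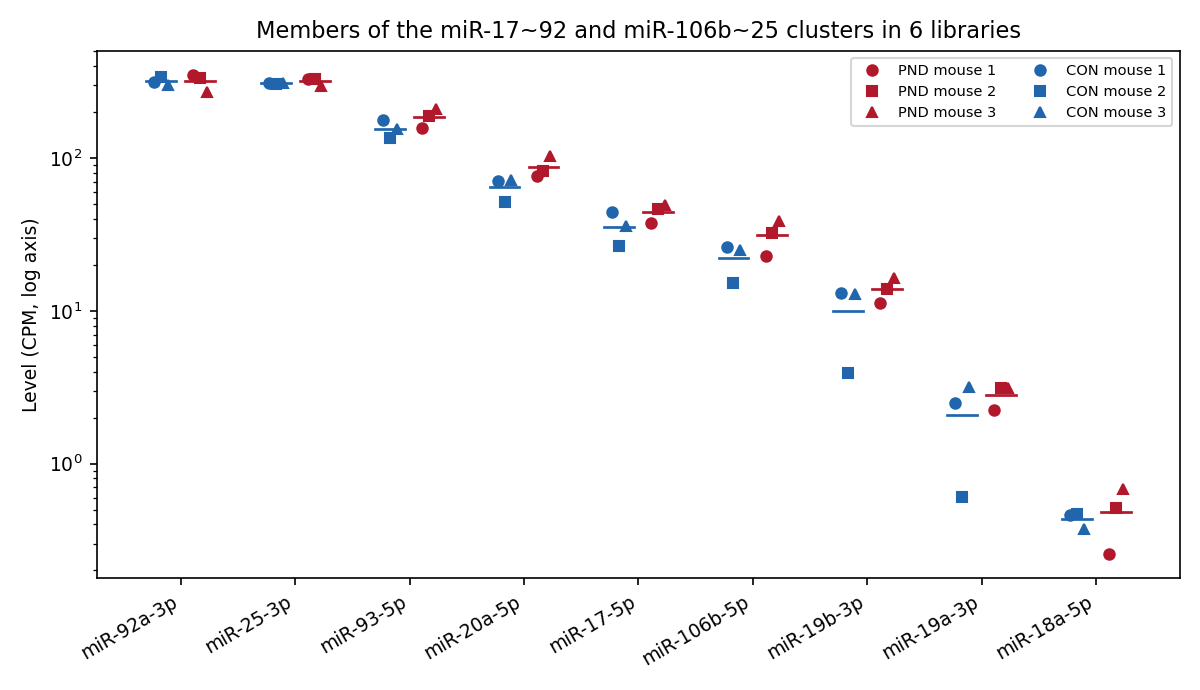
Level of each member in CPM (log axis) in each of the 6 libraries, with the CON mice in blue to the left and the PND mice in red to the right, the shape of a point giving the mouse number and the short lines the group means. The levels run from over 300 CPM for miR-92a-3p and miR-25-3p to under 1 CPM for miR-18a-5p, and miR-20a-5p is the member whose red points all lie above its blue points. Among all 1189 entries, 7.91% had every PND mouse above every CON mouse.

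The order of the 9 levels was nearly the same in every mouse. Among all 1189 entries, ranked by mean CPM, miR-92a-3p was at rank 124, miR-25-3p at 126, miR-93-5p at 159, miR-20a-5p at 210, miR-17-5p at 250, miR-106b-5p at 274, miR-19b-3p at 347, miR-19a-3p at 469 and miR-18a-5p at 666. Neighbours in this order were compared within libraries by an exact sign-flip permutation test (two-sided, 8 pairs). The pairs and their direction came from the same 6 libraries. The p-values therefore describe how constant the order was and are no independent support for it. For 7 of the 8 pairs the same miRNA was higher in 6 of 6 libraries, which gave an exact p = 0.031 for each, the smallest value that 6 libraries allow, and a Benjamini-Hochberg value of 0.036 over the 8 pairs. The exception was the top pair. miR-92a-3p was above miR-25-3p in 4 of 6 libraries, with a ratio of 0.91 to 1.12 (exact sign-flip permutation test, p = 0.688), so these leading members did not differ beyond their spread. miR-20a-5p was 1.59 to 2.08 times miR-17-5p, although they share a transcript and differ at 2 bases. miR-19b-3p was 4.06 to 6.44 times miR-19a-3p, and it is made from 1 more hairpin. Reads of different miRNAs also carry the preferences of ligation and amplification, whose part in this order was not tested.

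As shares of a cluster, miR-92a-3p took 61.0% to 80.5% of the reads of miR-17~92. miR-20a-5p took 12.1% to 23.3%, miR-17-5p 6.26% to 11.2%, miR-19b-3p 0.919% to 3.69%, miR-19a-3p 0.143% to 0.748% and miR-18a-5p 0.0536% to 0.153%. In miR-106b~25, miR-25-3p took 54.4% to 66.8%, miR-93-5p 29.8% to 38.4% and miR-106b-5p 3.36% to 7.15%. The leading share of each cluster was lowest in PND mouse 3 and highest in CON mouse 2. Without miR-19b-3p and miR-92a-3p, which have a second locus, miR-20a-5p took 63.9% of the remaining reads of the larger cluster on average.

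**Figure D2:**
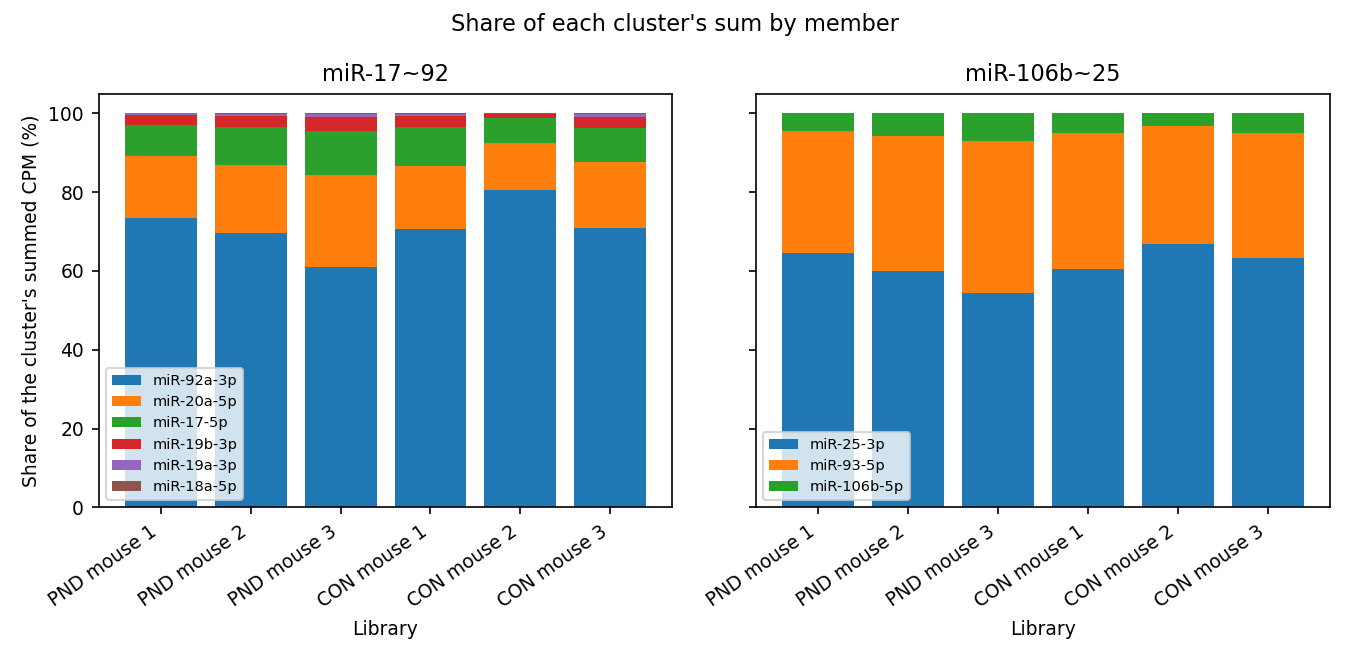
Share of each cluster's summed CPM (%) taken by each member, 1 bar per library, with miR-17~92 on the left and miR-106b~25 on the right. miR-92a-3p fills between 61.0% and 80.5% of the bars on the left and miR-25-3p between 54.4% and 66.8% of those on the right, and miR-18a-5p is too small to be seen.

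By seed, the reads of the 9 members fell on few sequences. The pair with the seed of miR-92a took 57.4% to 73.4% of them, the 4 with the seed of miR-17 took 26.0% to 40.6%, and the pair with the seed of miR-19 took 0.513% to 1.97%. Outside the clusters, miR-92b-3p, which shares the seed of miR-92a, had 526 to 637 CPM, more than miR-92a-3p in every library. miR-32-5p, which has the same seed, had 6.4 to 21.4 CPM.
mmu-miR-92b-3p: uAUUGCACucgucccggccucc
mmu-miR-32-5p: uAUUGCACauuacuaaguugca

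The second question was which arm of each hairpin had more reads. The arms differ in sequence, so their reads also carry the preferences of ligation and amplification, whose part was not tested. The reads alone therefore do not show which strand was kept. For the 8 hairpins whose other arm was listed, the arm that counts as the member had more reads in every library in 6. For miR-17-5p the 6 libraries together held 4075 reads against 118 of miR-17-3p, for miR-93-5p 17321 against 432 of miR-93-3p, and for miR-25-3p 31743 against 358 of miR-25-5p. The bias was steeper for miR-20a-5p, with 7758 reads against 14 of miR-20a-3p, and for miR-92a-3p, with 32266 reads against 25 of miR-92a-1-5p. mmu-miR-19b-3p had 1216 reads and miR-19b-1-5p had 5, at most 2 in a library. miR-92a-1-5p and miR-19b-1-5p belong to the hairpins on chromosome 14 alone. The matching arms of the X-linked hairpins and miR-19a-5p had no entry under their names among the 1189.

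Mir106b went the other way. Its 3p arm had 86.2, 86.2 and 83.0 CPM in PND mice (85.2 ± 1.82, SD, n = 3), against 82.0, 77.7 and 91.7 CPM in CON mice (83.8 ± 7.17, SD, n = 3). It was above miR-106b-5p in 6 of 6 libraries, by 2.13 to 5.08 times, and took 75.8% of the reads of both arms. While miR-106b-5p varied 2.55 times between its lowest and highest library, miR-106b-3p varied 1.18 times. The arms have different seeds, so they can pair with different targets.
mmu-miR-106b-5p: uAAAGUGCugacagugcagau
mmu-miR-106b-3p: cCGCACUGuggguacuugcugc

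For Mir18 the 3p arm was also ahead, in 5 of 6 libraries. miR-18a-3p had 14, 17 and 8 reads in PND mice, against 13, 11 and 11 reads in CON mice, and the arms summed to 46 reads for the 5p arm and 74 for the 3p arm. PND mouse 3 was the library in which the 5p arm was higher. Reads this few leave wide counting intervals. The 8 reads of miR-18a-3p in PND mouse 3 had an exact Poisson 95% interval of 3.45 to 15.8 reads and the 17 reads in PND mouse 2 one of 9.90 to 27.2 reads.
mmu-miR-18a-3p: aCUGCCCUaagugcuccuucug

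The split between the arms was compared between PND and CON by the log2 ratio of CPM + 1 in 7 hairpins, without miR-19b-3p, whose other arm never passed 3 reads. The groups overlapped in all 7. The added 1 CPM exceeds the levels of miR-20a-3p (0 to 0.257 CPM) and miR-92a-1-5p (0.0673 to 0.455 CPM). For both hairpins the ratio therefore mostly follows the member's own level and cannot compare the split. It also shrinks differences for miR-17-3p (0.847 to 1.64 CPM) and miR-18a-3p (0.452 to 0.966 CPM). The difference, PND minus CON, was largest for miR-17-5p over miR-17-3p, with 4.52 ± 0.356 (SD, n = 3) in PND against 3.91 ± 0.346 (SD, n = 3) in CON (exact permutation test, two-sided, p = 0.2). For miR-106b-5p over miR-106b-3p it was 0.46, with a mean log2 ratio of -1.44 ± 0.405 (SD, n = 3) in PND and -1.91 ± 0.338 (SD, n = 3) in CON (exact permutation test, p = 0.3). Over the 7 hairpins the p-values ran from 0.2 to 1, and 3 mice against 3 cannot go below 0.1.

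**Figure D3:**
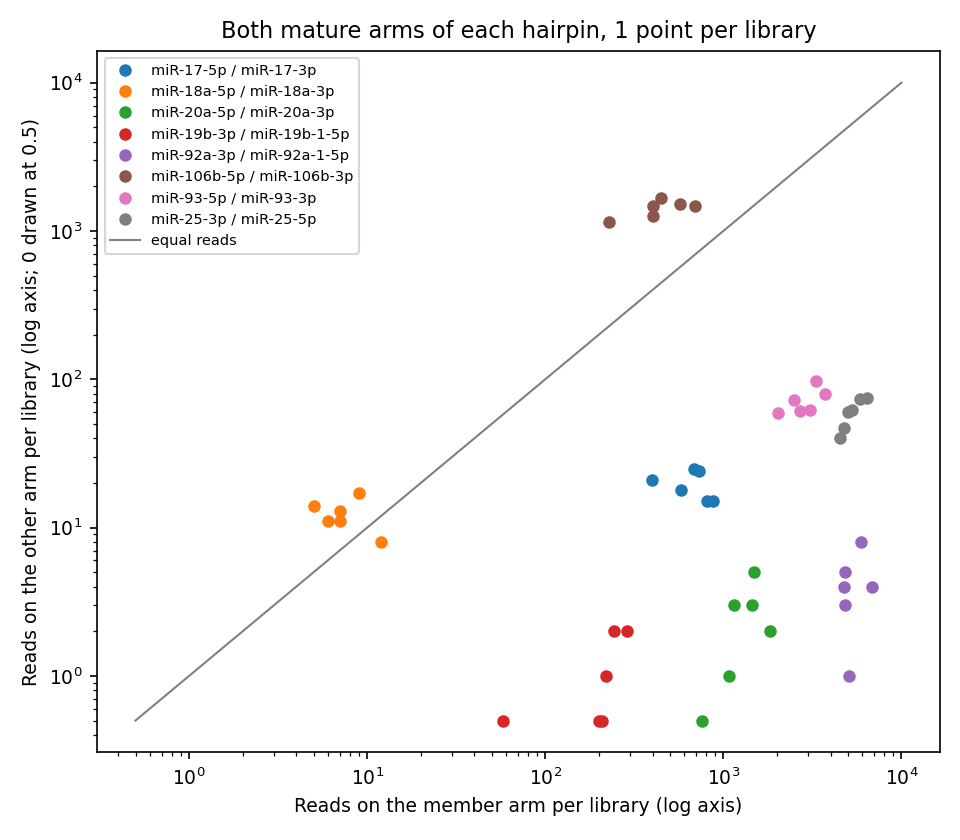
Reads on the arm that counts as the member (horizontal, log axis) against reads on the other arm of the same hairpin (vertical, log axis, 0 drawn at 0.5), 1 point per library and 1 colour per hairpin, with a grey line at equal reads. The points of Mir106b lie above the line in 6 of 6 libraries and those of Mir18 in 5 of 6, while the other hairpins lie below it in every library.

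PND and CON were then compared for each member with limma on log2(CPM + 1), fitted over all 1189 entries. Of the 9 members, 1 had an unadjusted p under 0.05, 0 had an adjusted p under 0.05, and 0 passed the limits of the study's methods, an unadjusted p under 0.05 with a change above 2-fold. Over all entries these shares were 5.13% for the unadjusted p, 0.421% for the adjusted p and 0.0841% for both limits. With 9 members, 1 with an unadjusted p under 0.05 is no more than 1 above what this background gives. The study's methods name edgeR for the p-value and limma, with fold changes taken from TPM values. The added 1 CPM shrinks changes at low levels, so the 0.0841% is the share for this fit only. Both limits were passed by 31 entries with the edgeR exact test and by 22 with a pseudocount of 0.1, with 0 members in either.

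The member with an unadjusted p under 0.05 was miR-20a-5p. Its log2 fold change, PND minus CON, was 0.43 (standard error 0.18, 95% interval 0.02 to 0.85), with an unadjusted p of 0.0438 and an adjusted p of 0.77 from limma with Benjamini-Hochberg adjustment. The exact permutation test gave p = 0.1, the smallest value of this design. The lowest PND mouse was 1.06 times the highest CON mouse. Groups that did not overlap with PND higher were found for 7.91% of all entries, and for 8.59% of the 361 entries averaging 10 CPM or more. With CON higher they were found for 2.02% of all entries and for 0 of the 9 members. Leaving out any of the 6 mice took the unadjusted p of miR-20a-5p above 0.05, with a log2 fold change between 0.28 (without CON mouse 2) and 0.52 (without PND mouse 1).

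The other members with the seed of miR-17 had log2 fold changes of 0.33 for miR-17-5p (standard error 0.21), 0.49 for miR-106b-5p (standard error 0.26) and 0.25 for miR-93-5p (standard error 0.15). Their adjusted p was 0.77 in limma, and the groups overlapped for each. Those of the pair with the seed of miR-92a were near 0, at -0.01 for miR-92a-3p (standard error 0.13, 95% interval -0.32 to 0.30) and 0.04 for miR-25-3p (standard error 0.10, 95% interval -0.19 to 0.28). These intervals exclude a 2-fold change in either direction. The pair with the seed of miR-19 had the widest intervals, with 0.57 for miR-19b-3p (95% interval -0.35 to 1.50) and 0.41 for miR-19a-3p (95% interval -0.40 to 1.22), both with an adjusted p of 0.77 in limma. mmu-miR-18a-5p had 0.04 (standard error 0.12), on a scale where the added 1 CPM understates changes at its level.

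**Figure D4:**
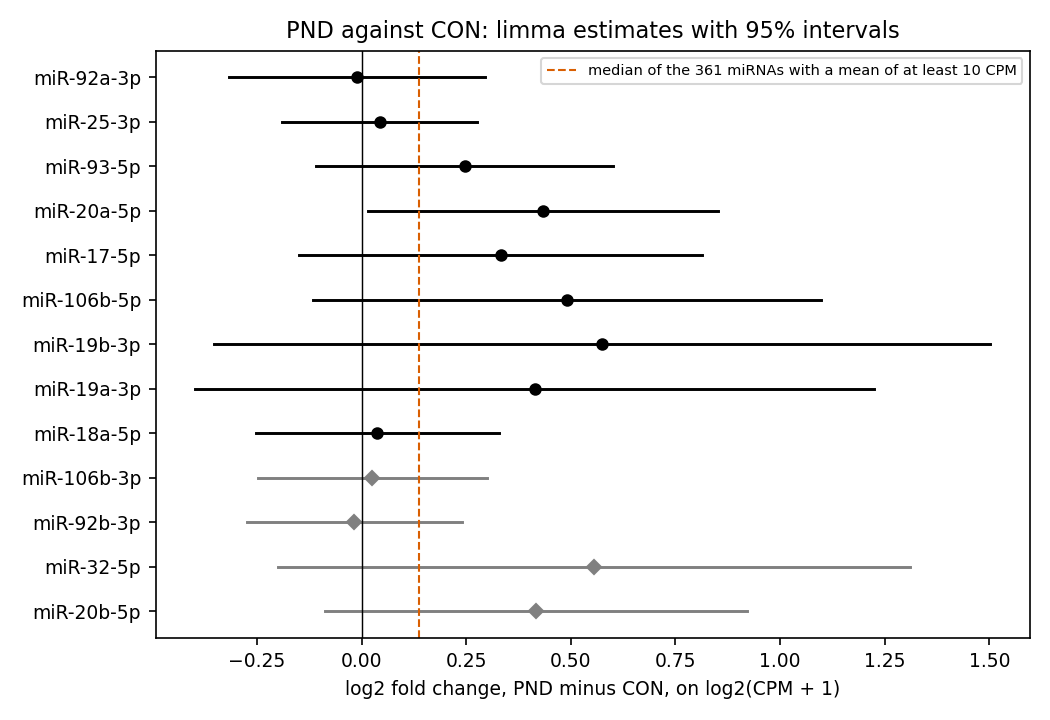
log2 fold change on log2(CPM + 1), PND minus CON, from limma with its 95% interval for the 9 members (black circles, in order of level) and for miR-106b-3p, miR-92b-3p, miR-32-5p and miR-20b-5p (grey diamonds), with the dashed line at the median of the 361 entries averaging 10 CPM or more. The interval of miR-20a-5p, from 0.02 to 0.85, is the only one drawn that lies wholly above 0, and it includes the dashed line at 0.14.

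These changes have to be read against a shift of the whole profile. The median log2 fold change of the 361 entries that averaged at least 10 CPM was 0.14, so that typical miRNAs of this level were also somewhat higher in PND when scaled to the library total. With TMM factors, which lay between 0.855 for CON mouse 2 and 1.06 for PND mouse 3, this median was 0.02. The median of the 9 members was 0.33 with the library total and 0.21 with TMM factors. Relative to the median of the 361, 6 members lay above it and 3 (miR-92a-3p, miR-25-3p and miR-18a-5p) below it under both scalings. Against 0 itself, 8 of the 9 log2 fold changes were positive with the library total and 6 with TMM factors, under which miR-25-3p was at -0.079, miR-18a-5p at -0.0054 and miR-92a-3p at -0.13. miR-20a-5p then had 0.31 with an unadjusted p of 0.0501, and its groups still did not overlap.

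The summed levels were compared next. The miR-17~92 sum was 468 ± 22.1 CPM (SD, n = 3) in PND and 432 ± 13.7 CPM (SD, n = 3) in CON, and the miR-106b~25 sum was 535 ± 24.7 CPM (SD, n = 3) and 487 ± 29.1 CPM (SD, n = 3). The groups overlapped for both sums. The log2 differences of 0.11 and 0.14 were about as large as the median shift of 0.14, and with TMM factors they became -0.0097 and 0.015. The sum of all 9 members, listed above by mouse, was higher in every PND mouse than in every CON mouse with the library total, by 0.13 on the log2 scale. With TMM factors the groups overlapped and this difference was 0.0040. The ratio of the sums, which does not depend on scaling, was 0.875 ± 0.0672 (SD, n = 3) in PND and 0.889 ± 0.0382 (SD, n = 3) in CON.

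By seed, the 4 miRNAs with the seed of miR-17 summed to 294, 350.3 and 401 CPM in PND mice, and to 318, 229 and 288 CPM in CON mice. The pair with the seed of miR-92a summed to 678, 667 and 567 CPM in PND mice, and to 627, 646 and 612 CPM in CON mice. Within libraries, the first sum was 0.434, 0.525 and 0.708 of the second in PND mice, against 0.507, 0.354 and 0.470 in CON mice. The groups overlapped, and the extremes were again PND mouse 3 and CON mouse 2.

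Both of these libraries stood apart for most members. CON mouse 2 was the lowest library for 6 of the 9 members (the 4 with the seed of miR-17 and the pair with the seed of miR-19), and PND mouse 3 was the highest for 6 of the 9. Among the 361 entries of at least 10 CPM on average, 67.6% were lowest in CON mouse 2 and 44.0% were highest in PND mouse 3, so the members are near the rest of the profile in the first of these. Without CON mouse 2 the median log2 fold change of the members fell from 0.33 to 0.07, and that of the 361 entries from 0.14 to 0.04. miR-19b-3p went from 0.57 to 0.07, miR-19a-3p from 0.41 to -0.0021, miR-17-5p from 0.33 to 0.14 and miR-106b-5p from 0.49 to 0.26.

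The departures of CON mouse 2 differed among the members, and they are given here with the base composition. On log2(CPM + 1), miR-19b-3p (39.1% G + C) lay 1.29 and miR-19a-3p (34.8%) 1.04 below the mean of the 6 libraries in this mouse, followed by miR-106b-5p (42.9%) at 0.71, miR-17-5p (47.8%) at 0.54, miR-20a-5p (39.1%) at 0.52 and miR-93-5p (52.2%) at 0.31. miR-25-3p (50.0%) lay 0.04 below it, miR-92a-3p (57.1%) lay 0.10 above it, and miR-18a-5p (43.5%) lay 0.02 above it with 7 reads. The added 1 CPM shrinks departures at low levels, so those of miR-19a-3p and miR-18a-5p cannot be ranked with the others. In CPM, the level of CON mouse 2 was 0.27 of the lowest other library for miR-19a-3p and 0.35 for miR-19b-3p. The departures and the G + C percentages did not follow the same order. The seed mate miR-32-5p, with 31.8% G + C, lay 1.0 below the mean, and miR-92b-3p, with 63.6%, lay 0.12 below it, although both have the seed of miR-92a. Over the 312 entries that averaged at least 10 CPM and had a RefSeq mature sequence, the correlation of the G + C percentage with the departure was r = 0.30 (Spearman 0.26) in CON mouse 2 and r = -0.35 (Spearman -0.34) in PND mouse 3. It was as high in PND mouse 1 (r = 0.30, Spearman 0.35) as in CON mouse 2. In PND mouse 2 it was r = -0.12 (Spearman -0.25). CON mouse 1 had r = -0.04 (Spearman 0.17) and CON mouse 3 had r = -0.13 (Spearman -0.17). This is a description across miRNAs of 1 library each, and the part of base composition in the differences between PND and CON was not tested.

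**Figure D5:**
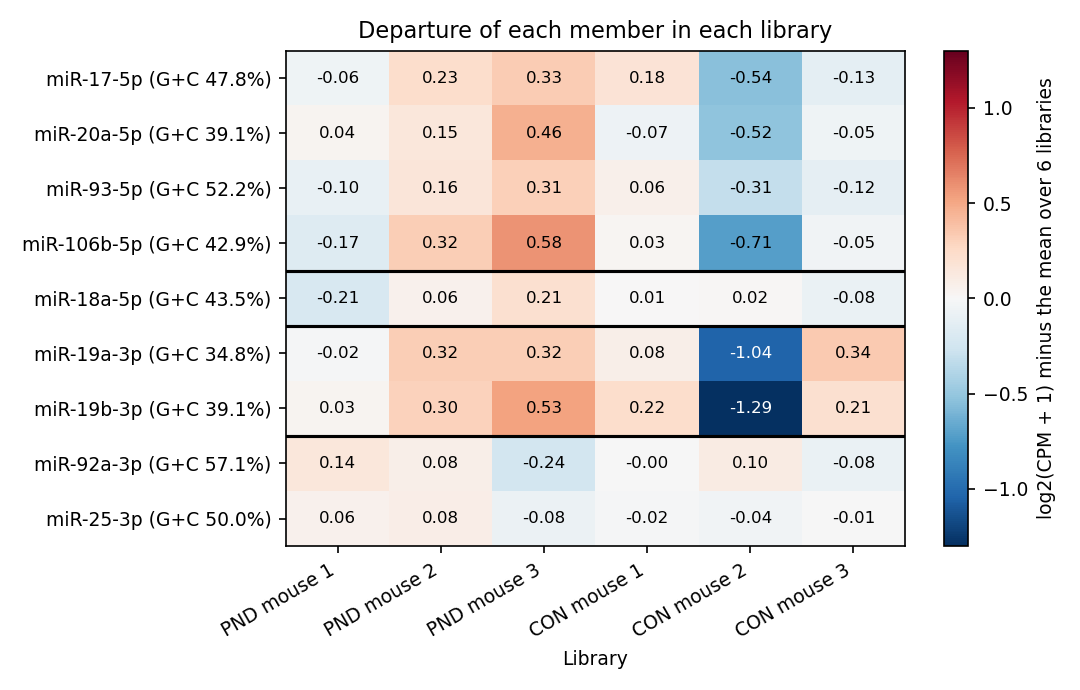
Departure of each member (rows, grouped by seed, with the G + C percentage of the mature sequence) from its mean over 6 libraries on log2(CPM + 1), for each library (columns), with red above and blue below the mean. CON mouse 2 holds the lowest values, down to -1.29 for miR-19b-3p, and the pair with the seed of miR-92a at the bottom stays within 0.24 of its mean in every library.

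The paralogous miR-106a-363 cluster on the X chromosome had few reads on the miRNAs that it alone encodes. Over all 6 libraries, miR-106a-5p had 69 reads, miR-18b-5p 2, miR-20b-5p 180, miR-363-3p 137 and miR-363-5p 22. None of these 5 had an unadjusted p under 0.05 in limma, against 5.13% of all entries. miR-20b-5p, with the seed of miR-17, had 1.85, 1.70 and 2.88 CPM in PND mice, against 1.51, 0.875 and 1.68 CPM in CON mice. Every PND mouse was above every CON mouse, by as little as 1.02 times, as for 7.91% of all entries. Its log2 fold change in limma was 0.42 (standard error 0.22, adjusted p = 0.77).
mmu-miR-20b-5p: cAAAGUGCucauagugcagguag
Of the 8 other arms of the members' hairpins, 1 had an unadjusted p under 0.05, miR-19b-1-5p, beside 5.13% of all entries. It had 1, 2 and 2 reads in PND mice, against 0 in each CON mouse, all under the floor. The seed mates miR-32-5p (log2 fold change 0.56, standard error 0.33) and miR-92b-3p (log2 fold change -0.02, standard error 0.11) had adjusted p-values of 0.77 and 0.98 in limma.

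Outside the family, the entries whose levels followed the cluster sums most closely over the 6 libraries were named by Pearson's r of log2(CPM + 1), among 351 candidates with a mean of at least 10 CPM. For miR-17~92 they were miR-130b-5p (r = 0.96), miR-433-3p (r = 0.92) and miR-382-5p (r = 0.88). For miR-106b~25 they were miR-1193-3p (r = 0.98), miR-9-3p (r = 0.96) and miR-210-3p (r = 0.96). Of these 6, all but miR-130b-5p were lowest in CON mouse 2, and the correlations, picked as the highest of many over 6 libraries that share their depth and scaling, are a description only.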

How the data were processed

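Small RNA libraries of 3 PND and 3 CON mice were analysed, 1 per mouse. Groups and replicate numbers come from the sample labels, and the libraries are separate mice according to the study's methods. The methods name a NEBNext small RNA kit, the labels a VAHTS total RNA kit. Per the methods, the authors ran fastx to filter reads, kept those with the length of small RNAs, aligned them with Bowtie and assigned them to miRBase miRNAs. The submitters' processing notes list Bowtie 0.12.2 and the builds mm8 and mm9 without a role for either. The deposited values are CPM (called TPM in the methods), and each library sums to 1000000 within rounding, so any TMM scaling by the authors is no longer visible. Divided by the worth of 1 read, 100% of the values came out whole within 0.1 read, and these recovered reads served for depth (14849461 to 19471226 reads) and for count tests. No table columns were left unused. No library repeated another: for pairs of 1 group, chi-square over its degrees of freedom lay between 81.7 and 428.9.

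PND was compared with CON by limma 3.58.1 (R 4.3.3, variance trend, no covariate, no filter), fitted to log2(CPM + 1) over the whole list of 1189 entries, with Benjamini-Hochberg adjustment over all entries. On this scale the change of low miRNAs is understated. Alternatives were a pseudocount of 0.1, a mean of at least 10 CPM, at least 10 reads in 3 libraries, no trend, TMM and DESeq2 size factors, the replicate number as a block, edgeR 4.0.16 (quasi-likelihood and exact tests), DESeq2 1.42.0 and limma-voom on the recovered reads, and each mouse left out. The count of members whose groups do not overlap and the sum of the 9 members were repeated with TMM and DESeq2 size factors, a choice made after the data were seen. Single values were compared by exact permutation tests over mice, two-sided. Sums over members and their ratio are given without a p, because the members and lists were chosen with earlier results of these data known. The p-values printed for single members, arms and neighbouring pairs carry the same limit. Named miRNAs are the 9 members, the other arms of their hairpins, the miR-106a-363 cluster, listed miRNAs with a member's seed, the 3 entries most correlated with each cluster sum, and miR-124-3p, miR-9-5p and miR-128-3p as cortical reference. The seeds were read from RefSeq mature sequences (GRCm38.p6), which matched 997 of the 1189 entries, and the host genes from GENCODE M21. Coordinates are those of the reference, as the deposited values carry none. Python 3.11.15 with numpy 2.4.6, pandas 2.3.3, scipy 1.17.1 and matplotlib 3.10.9 was used.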

Additional observations from a re-analysis of the deposited data

How the results depend on the processing

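The number of members with an unadjusted p under 0.05, 1 in the reported fit, was 0 with a mean of at least 10 CPM (which leaves out miR-18a-5p and miR-19a-3p), with TMM or DESeq2 size factors, and with DESeq2, the edgeR exact test and limma-voom. It was 2 with edgeR's quasi-likelihood test (miR-106b-5p and miR-20a-5p), which had 50 such entries of 1189 in all. With a mouse left out it was 0 or 1, and the 1 was miR-17-5p, without CON mouse 1. Over all 1189 entries, such counts ran from 31 (without PND mouse 2) to 91 (without CON mouse 1). Of the members, 0 had an adjusted p under 0.05 in any of these settings. A minimum of 10 reads in 3 libraries left out miR-18a-5p. miR-20a-5p kept groups without overlap under TMM and DESeq2 size factors, a choice made after the data were seen, and was the only member with such groups under each. Over all 1189 entries, PND was higher without overlap for 64 and CON for 41 with TMM factors, and for 61 and 44 with DESeq2 size factors.

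Of 150 alternative log2 fold changes of the members, 14 had the opposite sign, for miR-25-3p, miR-18a-5p, miR-92a-3p and miR-19a-3p. For miR-25-3p (0.04 in the reported fit) they were -0.079 with TMM factors, -0.11 with DESeq2 size factors, -0.079 with edgeR's quasi-likelihood test, -0.11 with DESeq2, -0.079 with the edgeR exact test and -0.078 with limma-voom. For miR-18a-5p (0.04) they were -0.0054 with TMM factors, -0.016 with DESeq2 size factors, -0.024 with DESeq2 and -0.078 with limma-voom, and a mouse left out gave -0.057 (without PND mouse 3) to 0.15. A mouse left out gave -0.0021 (without CON mouse 2) to 0.69 for miR-19a-3p, and -0.086 to 0.10 (without PND mouse 3) for miR-92a-3p, which was also above 0 without CON mouse 2. The log2 ratio of miR-18a-5p to its other arm, PND minus CON, ran from -0.12 (without PND mouse 3) to 0.21, and that of miR-20a-5p was -0.27 with a pseudocount of 0.1, where the reported value was 0.31.

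The log2 difference of the miR-17~92 sums, 0.11 as reported, was -0.0097 with TMM factors and -0.039 with DESeq2 size factors, and that of the miR-106b~25 sums, 0.14, was -0.014 with DESeq2 size factors. The sum of all 9 members, 0.13 as reported, was 0.0040 with TMM factors and -0.026 with DESeq2 size factors, both with groups that overlapped, settings chosen after the data were seen. The log2 difference of the ratio of the cluster sums, -0.03, was 0.27 without miR-19b-3p and miR-92a-3p and 0.14 without the most abundant member of each cluster, and -0.081 to 0.029 with a mouse left out, above 0 when either PND mouse 3 or CON mouse 2 was missing. The share of miR-20a-5p, 16.9%, was 63.9% without the members that have a second locus, since fewer members then share the sum. For the other changes the cause was not tested.

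The labels number the mice 1 to 3 in both groups. The deviations of same-numbered mice from their group means had correlations of -0.13, 0.12 and 0.51 over 361 entries, and 3 of 6 libraries correlated best with their own number, so the numbers were not taken to pair the mice. With the replicate number as a block, miR-20a-5p kept its log2 fold change of 0.43, with an unadjusted p of 0.0455 and an adjusted p of 0.75 in limma, and the block changed no call of a member. Depth limits the values of miR-18a-5p, with 5 to 12 reads per library, and of miR-20a-3p, miR-92a-1-5p and miR-19b-1-5p, with 0 to 8.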
